A study of Mus musculus with 6 samples.

Results

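A set of 10 circadian clock genes was followed through sorted kidney endothelial cells (ECs) of mice with and without the endothelial Notch mediator Rbpj. The members were all rows of the deposited gene table whose symbol was Arntl, Clock, Per1, Per2, Per3, Cry1, Cry2, Nr1d1, Nr1d2 or Dbp, 10 of the 55401 listed genes, and all 10 passed the filter on low counts. Kidneys were taken from male mice carrying floxed Rbpj with or without the tamoxifen-inducible Cdh5(PAC)-CreERT2 transgene, and CD31-positive, CD45-negative cells were sorted and sequenced as 1 library per mouse. The 3 mice labelled RbpjΔEC (RbpjDEC in the labels) carried Cre +/-; Rbpjf/f, and the 3 control littermates (CTRL) carried Cre -/-; Rbpjf/f, so both alleles of Rbpj were floxed in every mouse. All 6 mice received tamoxifen (5 doses of 1.5 mg) at 8 weeks of age, and the labels give a harvest 12 weeks after induction and an age of 21 weeks. The Cre recombinase is driven by the Cdh5 promoter, which is active in endothelium as a whole, and the controls lacked Cre. The hour of the day at which each kidney was taken is not given in the sources used here.

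The clock is a loop of transcription that runs in nearly every cell. ARNTL (also called BMAL1) and CLOCK bind E-box sequences together and switch on the Period, Cryptochrome, Nr1d1, Nr1d2 and Dbp genes. PER and CRY proteins then return to the nucleus and block ARNTL and CLOCK, while the nuclear receptors NR1D1 and NR1D2 (REV-ERBα and β) repress Arntl through RORE sequences. In mouse tissues under a light/dark cycle, Arntl RNA is therefore high at the hours when Dbp and Nr1d1 RNA are low, and the Period RNAs peak after Nr1d1. RNA of these genes can thus be read as the position of the clock at the moment of harvest, and in endothelium the loop is known to gate clotting factors and leukocyte adhesion.

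The depth was 39649171 to 47726850 counts on genes per library, so that 3 counts, taken as the floor, stood for 0.0633 to 0.0748 CPM (library-scaled counts with TMM factors of edgeR). CTRL 1 stood apart from the rest, with counts on 33764 genes against 25629 to 26785 in the others. The level of Rbpj itself was 29.2 ± 0.963 CPM (SD, n = 3) in CTRL. In the RbpjΔEC libraries it was 28.2 ± 1.86 CPM (SD, n = 3). These counts span the whole gene and not the floxed part, so the genotype rests on the labels. Over 12 endothelial markers the summed level was 21926 to 24046 CPM in CTRL and 19886 to 20190 CPM in RbpjΔEC. Of 8 mural cell markers, all were lower in RbpjΔEC and 3 passed the test (Acta2, Myh11 and Rgs5, where 0.559% of all tested genes were called lower), with sums of 85.0 to 111.5 CPM in CTRL and 35.0 to 56.5 CPM in RbpjΔEC, and the part of this in the values below was not tested. Summed levels of the other marker lists were 294 to 424 CPM in CTRL and 130.4 to 468 CPM in RbpjΔEC for tubule (0 of 10 called), 3181 to 3561 and 2589 to 2857 CPM for podocytes (0 of 5, with Nphs1 at 0.333 to 2.98 CPM), 14.2 to 15.3 and 23.3 to 28.2 CPM for leukocytes (Cd68 higher, of 4 tested of 8, where 0.575% of all tested genes were called higher) and 4.62 to 7.08 and 1.54 to 2.92 CPM for fibroblasts (Pdgfra lower, of 3 tested of 6, beside the same 0.559%). Of the 4 tested leukocyte markers 2 were below 0 (median log2 fold change -0.56), and Cd3e was at 0 counts in all libraries. In bulk RNA, fewer cells of a type and less RNA per cell cannot be told apart.

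Sequences around the transcription start are shown for the members that carried one of the clock's own binding motifs there, so that a motif can be set beside the levels of its gene below. RefSeq windows on GRCm38.p6, from 250 bases before to 50 bases after each start, were found for 9 of the 10 members in 13 windows. Searched on both strands were the E-box CACGTG, the D-box TTANGTAA (bound by DBP, TEF and HLF), the cAMP response element (CRE) TGACGTCA and the RORE by its name. Capitals mark the matched motif, an RORE in Arntl, an E-box in Per1 and Cry1, D-boxes in Per3, and 3 E-boxes in Ciart, a clock repressor outside the 10 that is printed as an example of a dense promoter. Windows of Tef, Hlf, Bhlhe41, Cipc and Rorb, further genes of the clock that also held a match, are not printed.
Arntl (chr7:113207261-113207560, plus strand): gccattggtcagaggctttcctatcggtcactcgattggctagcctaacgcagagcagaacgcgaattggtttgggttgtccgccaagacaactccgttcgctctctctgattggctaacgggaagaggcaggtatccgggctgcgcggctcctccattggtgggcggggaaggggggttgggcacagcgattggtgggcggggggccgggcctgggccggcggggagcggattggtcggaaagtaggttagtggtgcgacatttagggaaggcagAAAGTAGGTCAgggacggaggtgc
Per1 (chr11:69098699-69098998, plus strand): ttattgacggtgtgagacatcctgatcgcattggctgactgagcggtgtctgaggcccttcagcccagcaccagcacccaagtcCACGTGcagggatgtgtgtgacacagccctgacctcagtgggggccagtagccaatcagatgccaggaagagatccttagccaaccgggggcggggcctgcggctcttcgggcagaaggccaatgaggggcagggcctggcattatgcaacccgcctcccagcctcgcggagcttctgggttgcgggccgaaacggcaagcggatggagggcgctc
Per3 (chr4:151044616-151044915, minus strand): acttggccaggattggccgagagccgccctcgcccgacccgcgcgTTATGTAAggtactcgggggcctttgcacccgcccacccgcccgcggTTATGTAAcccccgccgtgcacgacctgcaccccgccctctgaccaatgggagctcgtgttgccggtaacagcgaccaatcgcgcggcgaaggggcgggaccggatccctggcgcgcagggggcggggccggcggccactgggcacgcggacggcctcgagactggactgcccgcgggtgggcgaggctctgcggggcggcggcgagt
Cry1 (chr10:85185005-85185304, minus strand): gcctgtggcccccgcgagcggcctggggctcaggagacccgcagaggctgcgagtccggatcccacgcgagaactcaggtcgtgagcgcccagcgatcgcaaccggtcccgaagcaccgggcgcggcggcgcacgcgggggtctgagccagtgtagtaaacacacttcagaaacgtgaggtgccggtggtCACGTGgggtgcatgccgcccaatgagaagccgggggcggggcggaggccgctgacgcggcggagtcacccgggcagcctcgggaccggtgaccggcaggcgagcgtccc
Ciart (chr3:95882179-95882478, minus strand): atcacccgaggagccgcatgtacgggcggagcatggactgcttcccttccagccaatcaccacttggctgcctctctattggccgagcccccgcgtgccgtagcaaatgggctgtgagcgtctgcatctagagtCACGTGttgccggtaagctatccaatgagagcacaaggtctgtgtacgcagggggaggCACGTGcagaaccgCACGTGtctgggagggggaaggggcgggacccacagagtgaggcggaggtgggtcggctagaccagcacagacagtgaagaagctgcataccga
An E-box was found in 2 of the 13 windows of the members and in 7.15% of all 32851 windows, a D-box in 1 of the 13 against 2.32%, an RORE in 1 of the 13 against 0.384%, and a CRE in 0 of the 13 against 1.79%. Counted from the start, the E-box began at -166 in Per1 and at -60 in Cry1, the D-boxes of Per3 at -205 and -158, and the RORE of Arntl at 27. A match describes letters in this window only, and other windows and introns were not searched.

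No clock gene passed the test between the genotypes. By the quasi-likelihood test of edgeR, adjusted after Benjamini and Hochberg over all 18438 tested genes, 0 of the 10 were higher and 0 lower at a threshold of 0.05, where 1.13% of genes passed (0.575% higher and 0.559% lower). Adjusted p-values of the 10 ran from 0.550 to 0.983. At an unadjusted p under 0.05 the count was 0 of 10 as well, against 17.5% of all tested genes (8.88% higher and 8.62% lower). DESeq2's Wald test called 0 of the 10 and 5.12% of all genes. With the replicate number as a block 0 of the 10 passed, against 1.87% of genes, and without both replicate 1 libraries 0 passed, against 0.0754%. In that last fit Per3 had an unadjusted p under 0.05, as did 7.71% of genes. The libraries of both groups overlapped for each of the 10, whereas they did not overlap for 23.0% of tested genes (11.4% higher and 11.6% lower). Of the 10 log2 fold changes, 5 were above and 5 below 0, with a median of 0.00 beside 0.01 over all tested genes. These libraries came from separate mice, so the spread is one between animals.

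**Figure D1:**
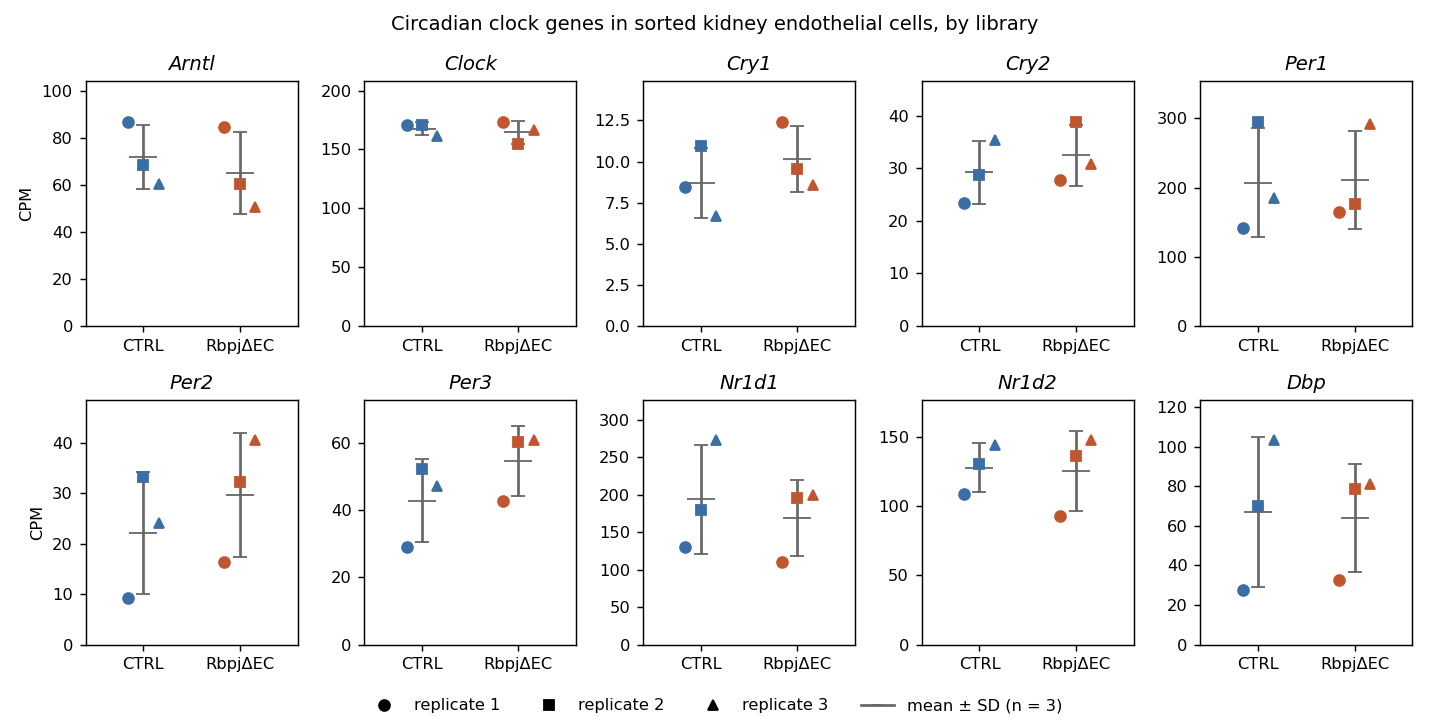
CPM of each of the 10 clock genes on a linear axis from 0, in the 3 CTRL and 3 RbpjΔEC libraries, with the marker shape giving the replicate number and the bar the mean ± SD of 3 libraries. The groups overlap in every panel, and for Dbp both replicate 1 libraries lie at 27.6 and 32.7 CPM, below the other 4 at 69.9 to 103 CPM.

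The activators come first. Arntl (ENSMUSG00000055116.8, chromosome 7 of GRCm38 from 113207465 to 113314126, plus strand) had 86.9, 68.3 and 60.4 CPM in the 3 CTRL libraries, in replicate order, and 84.7, 60.5 and 50.7 CPM in those of RbpjΔEC. CTRL 1 and RbpjΔEC 1 held its highest levels. RbpjΔEC against CTRL, the edgeR log2 fold change of Arntl was -0.14 with a standard error of 0.227 and an adjusted p of 0.796. Clock (ENSMUSG00000029238.11, chromosome 5 from 76209868 to 76304792, minus strand), which encodes the partner of ARNTL, had 170.5, 171 and 161 CPM in CTRL and 173, 154 and 166 CPM in RbpjΔEC. It was the steadiest of the 10, with a highest level 1.12 times the lowest. The 95% interval of its fold between the genotypes ran from 0.885 to 1.09.

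The Period genes encode the repressors that accumulate late in the cycle. Per1 (ENSMUSG00000020893.17, chromosome 11 from 69095217 to 69109960, plus strand) had 141, 295 and 185 CPM in CTRL and 164, 176 and 292 CPM in RbpjΔEC. Its 2 highest libraries, CTRL 2 and RbpjΔEC 3, belonged to different genotypes and were nearly level. For Per1 the edgeR log2 fold change was 0.03, its standard error 0.390 and its adjusted p 0.983. Per2 (ENSMUSG00000055866.9, chromosome 1 from 91415982 to 91459324, minus strand) had 9.14, 33.2 and 24.1 CPM in CTRL and 16.3, 32.2 and 40.5 CPM in RbpjΔEC. No other member spanned as wide a range of CPM, with 4.43 times between the lowest library, CTRL 1, and the highest, RbpjΔEC 3. At 0.42, with an adjusted p of 0.779 in edgeR, its log2 fold change was the largest of the 10 in size and smaller than its standard error of 0.614. Without CTRL 1 it was 0.05, and without CTRL 2 it was 0.83. Per3 (ENSMUSG00000028957.12, chromosome 4 from 151003652 to 151044665, minus strand) had 28.9, 52.3 and 47.1 CPM in CTRL and 42.6, 60.3 and 60.7 CPM in RbpjΔEC. Both groups had their lowest Per3 level in replicate 1. With a log2 fold change of 0.35 and a standard error of 0.261, Per3 had the smallest adjusted p of the 10 in edgeR, 0.550.

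The cryptochromes complete the repressor complex. Cry1 (ENSMUSG00000020038.10, chromosome 10 from 85131700 to 85185064, minus strand) had 8.47, 10.9 and 6.67 CPM in CTRL and 12.4, 9.53 and 8.58 CPM in RbpjΔEC, and CTRL 3 was its lowest library. Cry2 (ENSMUSG00000068742.11, chromosome 2 from 92403646 to 92434043, minus strand) had 23.5, 28.7 and 35.5 CPM in CTRL and 27.8, 38.9 and 30.8 CPM in RbpjΔEC. CTRL 1 and RbpjΔEC 1 were the lowest for Cry2 but not for Cry1. The log2 fold changes were 0.23 for Cry1 (standard error 0.196) and 0.15 for Cry2 (standard error 0.168), with adjusted p-values of 0.589 and 0.688 from the edgeR test.

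Nr1d1 and Nr1d2, the repressors of Arntl, followed nearly the same order. Nr1d1 (ENSMUSG00000020889.11, chromosome 11 from 98767932 to 98775333, minus strand) had 129.9, 179.5 and 273 CPM in CTRL and 110.2, 196 and 200.2 CPM in RbpjΔEC. Nr1d2 (ENSMUSG00000021775.11, chromosome 14 from 18204054 to 18239127, minus strand) had 109, 130.2 and 144 CPM in CTRL and 92.7, 136 and 148 CPM in RbpjΔEC. For both genes RbpjΔEC 1 was the lowest library and CTRL 1 the next. The log2 fold changes were -0.20 (standard error 0.391) for Nr1d1 and -0.02 (standard error 0.192) for Nr1d2, with adjusted p-values of 0.834 and 0.964 from the edgeR test. The last 1075 bases of Nr1d1 lie over Thra on the opposite strand in GENCODE M21, and the strand setting of the counting is not given in the sources used here. Thra, a thyroid hormone receptor gene, had 171, 152 and 176 CPM in CTRL and 174, 174 and 146 CPM in RbpjΔEC, and did not have its low values where Nr1d1 did.

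Dbp (ENSMUSG00000059824.12, chromosome 7 from 45705088 to 45710203, plus strand) encodes a D-box activator that carries the rhythm to output genes. It had 27.6, 69.9 and 103 CPM in CTRL and 32.7, 78.4 and 81.3 CPM in RbpjΔEC. CTRL 1 and RbpjΔEC 1 lay far below the other 4, so that Dbp varied 3.74 times within CTRL and 2.49 times within RbpjΔEC. Between the genotypes edgeR gave Dbp a log2 fold change of -0.06, a standard error of 0.646 and an adjusted p of 0.973. The 95% interval of the fold ran from 0.284 to 3.23, so this fit did not exclude a sizeable change in either direction. The log2 fold change of Dbp was 0.39 without CTRL 3, 0.25 without RbpjΔEC 1 and -0.44 without CTRL 1. Sphk2, on the opposite strand over the last 737 bases of Dbp, had 22.7 to 28.7 CPM in CTRL and 24.3 to 26.7 CPM in RbpjΔEC.

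Exact permutation tests on the CPM of single members, 3 libraries against 3 and two-sided, gave p-values of 0.3 to 1, where 0.1 is the smallest this design allows.

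**Figure D2:**
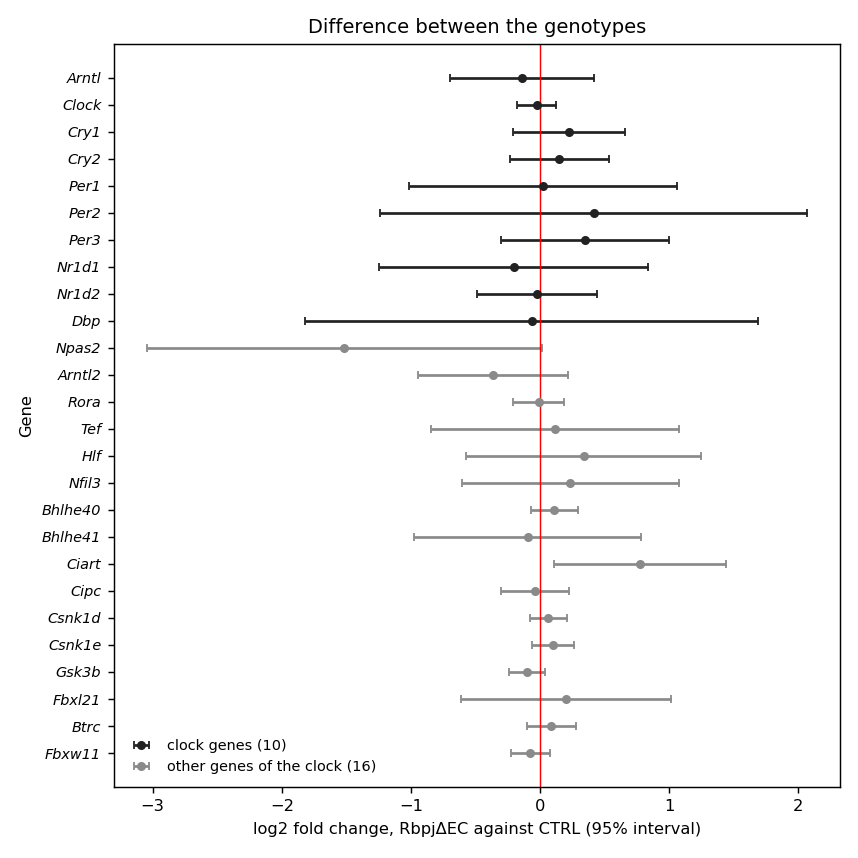
Log2 fold change of RbpjΔEC against CTRL (x axis, with 95% interval from edgeR's quasi-likelihood fit) for the 10 clock genes in black and 16 of the 18 further tested genes of the clock in grey. All 10 intervals in black cross 0, narrowest for Clock and wide for Per2 and Dbp.

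Per kilobase of exon (all GENCODE M21 exons of a gene merged), Nr1d1 RNA had the highest level, with 59.0 ± 18.7 CPM per kb over the 6 libraries (SD, n = 6). It was followed by Per1 at 37.1 ± 11.9, Nr1d2 at 23.4 ± 3.98 and Dbp at 21.9 ± 9.87 CPM per kb. The ranges of neighbours in this order overlapped for Nr1d1 with Per1, Per1 with Nr1d2 and Nr1d2 with Dbp, as did Clock at 12.1 ± 0.527 with Dbp and Arntl at 9.12 ± 1.92 CPM per kb with Clock. The lowest 4 were Per3 (5.06 ± 1.25), Cry2 (4.88 ± 0.878), Per2 (4.42 ± 1.99) and Cry1 (2.82 ± 0.605 CPM per kb). Their ranges overlapped except for Cry2 and Cry1, which lay just apart, and Arntl lay above Per3 in every library. The order is approximate, since merged exons include those of rare transcripts.

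Within each genotype, the clock genes had a wide spread between mice. The range of log2 CPM over the 3 libraries of a group had a median over the 10 of 0.78 in CTRL and 0.71 in RbpjΔEC. Over the 18438 tested genes that median was 0.35 and 0.32, and over the 10439 with a mean of at least 5 CPM it was 0.21 and 0.19. In each group, 9 of the 10 members exceeded this last median, the exception being Clock. Set beside genes within 1 log2 unit of its own level, Dbp was at the 99.97th percentile of this range in CTRL and at 99.5 in RbpjΔEC, while Clock was at 21.4 and 59.1. Per2 (99.9 and 99.4), Nr1d1 (99.9 and 99.3) and Per1 (99.9 and 99.2) stood close to Dbp. These percentiles describe the 3 mice of each group and carry no test.

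**Figure D3:**
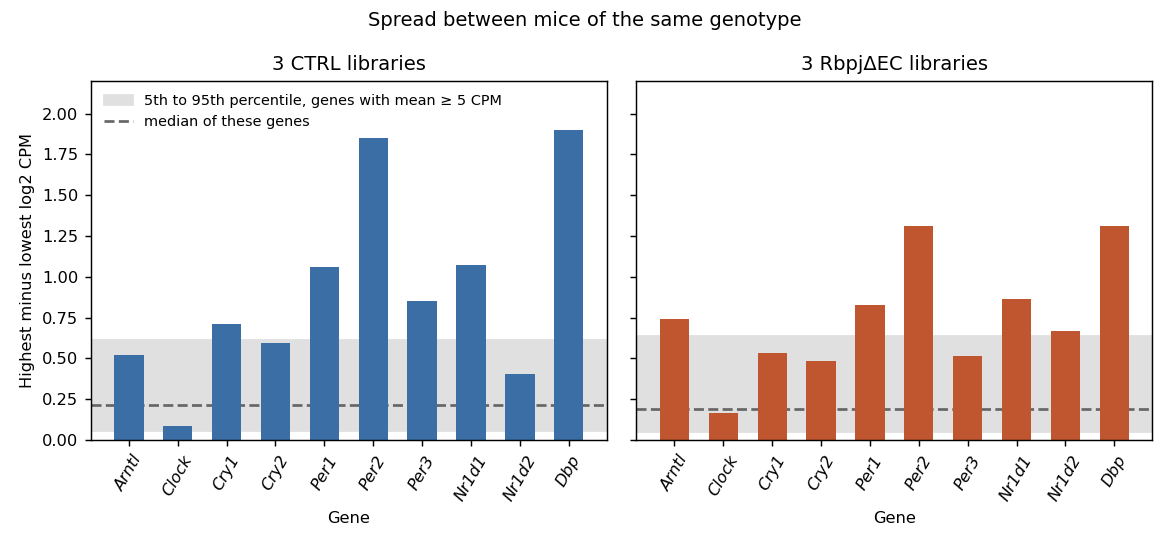
Highest minus lowest log2 CPM among the 3 libraries of CTRL (left) and of RbpjΔEC (right) for each clock gene, with the 5th to 95th percentile of genes with a mean of at least 5 CPM in grey and their median dashed. Dbp and Per2 reach 1.90 and 1.85 in CTRL and 1.31 each in RbpjΔEC, while Clock stays under the dashed line in both.

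Part of the order of libraries was shared across members. The 2 lowest libraries were the same for most, but the highest was not. It was CTRL 3 for Nr1d1 and Dbp, CTRL 2 for Per1, RbpjΔEC 2 for Cry2 and RbpjΔEC 3 for Per2, Per3 and Nr1d2. CTRL 1 and RbpjΔEC 1 were the 2 lowest libraries for 7 of the 10 members, Per1, Per2, Per3, Cry2, Nr1d1, Nr1d2 and Dbp, an order found in 4.25% of all tested genes. They were the 2 highest for Arntl, an order found in 3.88%. When each library was set against the mean of its own genotype, CTRL 1 and RbpjΔEC 1 lay on the same side for 9 of the 10 members, and CTRL 3 and RbpjΔEC 2 for all 10. CTRL 3 and RbpjΔEC 1 did so for 1 of the 10. The members share the loop that regulates them and are not independent of each other, and this order was noticed in the data, so it is given with no test.

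The ratio of Dbp to Arntl counts, which does not depend on the scaling of a library, was 0.318, 1.02 and 1.71 in CTRL and 0.386, 1.30 and 1.604 in RbpjΔEC, in replicate order. The ratio of Nr1d1 to Arntl counts was 1.50, 2.63 and 4.51 in CTRL and 1.30, 3.24 and 3.95 in RbpjΔEC. Both ratios placed the replicate 1 libraries lowest and CTRL 3 highest, with each genotype spanning most of the range. The ratio of Per2 to Arntl counts was 0.105, 0.485 and 0.398 in CTRL and 0.192, 0.532 and 0.800 in RbpjΔEC. It was also lowest in the replicate 1 libraries, but highest in RbpjΔEC 3. As a single value per library, the mean log2 CPM of Arntl and Clock minus that of Nr1d1, Nr1d2, Dbp and Per3 was 1.07, 0.17 and -0.25 in CTRL and 0.98, -0.13 and -0.26 in RbpjΔEC, with a difference of -0.13 between the group means, which was 0.24 without CTRL 1, 0.032 without RbpjΔEC 2, 0.095 without RbpjΔEC 3 and -0.53 without RbpjΔEC 1. With Npas2, a relative of Clock, among the activators as was first laid down, the values were -1.28, -2.09 and -2.87 in CTRL and -1.59, -3.47 and -3.16 in RbpjΔEC, with a difference of -0.66. That difference turned on Npas2, which had 35, 45 and 16 counts in CTRL and 24, 2 and 7 in RbpjΔEC. Whether the hour of harvest differed between these mice was not tested, and a harvest hour and a shift of the clock itself cannot be told apart here. CTRL 1 and RbpjΔEC 1 had 40761939 and 43949468 counts, and the other 4 libraries 39649171 to 47726850. CTRL 1 had counts on 33764 genes, against 25629 to 26785 in all the others, and the part of this in the order of libraries was not tested.

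**Figure D4:**
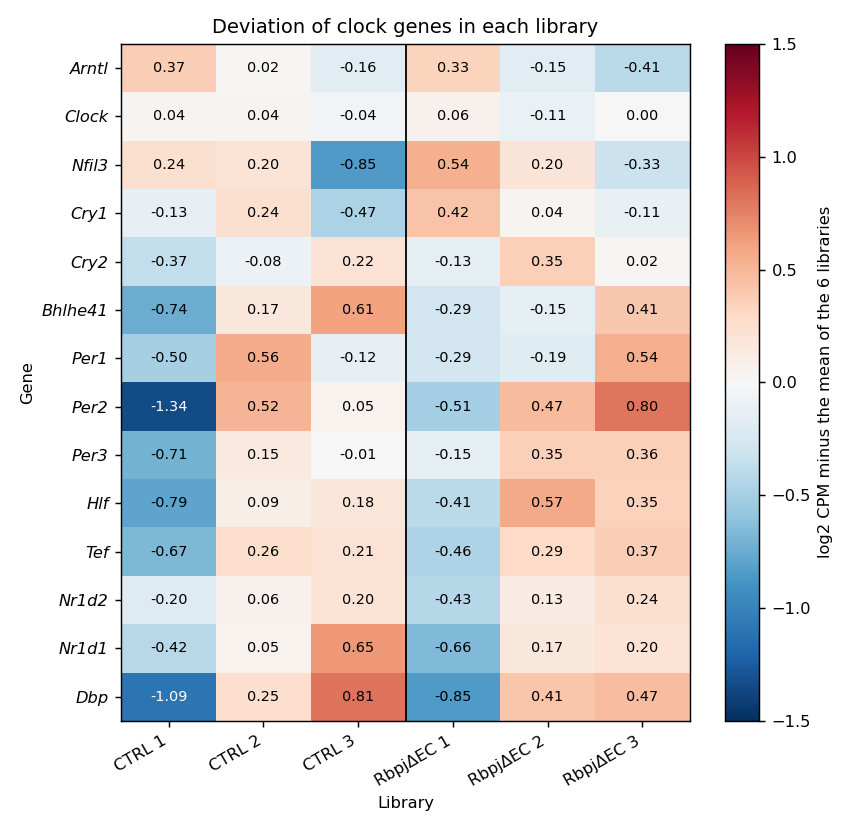
Log2 CPM of clock genes in each library minus the mean of the 6 libraries, as colour and printed value, with CTRL left and RbpjΔEC right of the line; Nfil3, Bhlhe41, Hlf and Tef are clock genes outside the 10. Dbp is at -1.09 in CTRL 1 and -0.85 in RbpjΔEC 1 while Arntl is at 0.37 and 0.33 there.

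Further genes of the clock were examined alike. Of 19 such genes (further activators, ROR receptors, bZIP factors, accessory repressors, kinases and ubiquitin ligases), 18 were tested, and 0 passed the adjusted threshold in edgeR or in DESeq2. At an unadjusted p under 0.05, 1 of the 18 was higher, Ciart, against 17.5% of all tested genes in either direction. Their median log2 fold change was 0.05, with 10 above and 8 below 0, and the groups did not overlap for 1 that was higher and 2 that were lower, against 23.0% of all tested genes. Ciart, a repressor of ARNTL and CLOCK, had 1.52, 3.14 and 1.92 CPM in CTRL and 2.76, 3.79 and 4.79 CPM in RbpjΔEC, with overlapping groups. Its edgeR log2 fold change was 0.78, with 0.305 as standard error and an adjusted p of 0.215. Npas2 had an edgeR log2 fold change of -1.51 (adjusted p = 0.289). CTRL 1 and RbpjΔEC 1 were the 2 lowest libraries for 4 of the 18, Tef, Hlf, Bhlhe41 and Cipc. Tef, Hlf, Nfil3 and the kinase and ligase genes below are given here after their values were seen. Tef, a relative of Dbp, had 61.6, 118 and 114 CPM in CTRL and 71.3, 120.3 and 127 CPM in RbpjΔEC. Hlf, the other relative, had 10.5, 19.4 and 20.6 CPM in CTRL and 13.7, 27.1 and 23.2 CPM in RbpjΔEC. Nfil3, a D-box repressor that NR1D1 is known to hold down, showed the opposite order, with 12.6, 12.3 and 5.87 CPM in CTRL and 15.5, 12.2 and 8.48 CPM in RbpjΔEC, highest in the replicate 1 libraries of both genotypes. Of the kinase genes, whose products phosphorylate clock proteins, Csnk1d, Csnk1e and Gsk3b had a highest level 1.10 to 1.20 times the lowest, whereas Fbxl21, a ubiquitin ligase gene, had one of 2.37 times.

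Of 12 output genes that are rhythmic in many mouse tissues, 0 passed the adjusted threshold in the edgeR test and 2 were higher at an unadjusted p under 0.05, against 8.88% of all tested genes higher and 17.5% in either direction, with a median log2 fold change of -0.08. Lonrf3 passed the threshold in DESeq2, with a log2 fold change of 0.58 (adjusted p = 0.0402 from DESeq2's Wald test). In the edgeR fit its log2 fold change was 0.59 with an adjusted p of 0.128, and it had 10.2, 12.1 and 7.57 CPM in CTRL and 17.8, 13.4 and 13.7 CPM in RbpjΔEC, without overlap. Coq10b had a log2 fold change of 0.31 (adjusted p = 0.134) and Nampt, the enzyme of NAD salvage, one of -0.15 (adjusted p = 0.377, both from edgeR). For 3 of the 12, CTRL 1 and RbpjΔEC 1 were the 2 lowest libraries (Tspan4, Herpud1 and Fkbp5), against 4.25% of all tested genes, and for 0 they were the 2 highest. For Lonrf3 and Coq10b every RbpjΔEC library lay above every CTRL library, as for 11.4% of all tested genes, so neither order could occur.

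Per1 shared the 2 lowest libraries of Dbp, CTRL 1 and RbpjΔEC 1, and departed from its order among the others. Besides the clock, glucocorticoid hormone and cAMP signals are known to induce Per1. Its 2 highest libraries were CTRL 2 and RbpjΔEC 3, as for Per2, an order found in 6.31% of tested genes. Of 10 glucocorticoid-responsive genes, 4 had the same 2 highest libraries, Fkbp5, Zbtb16, Tsc22d3 and Klf9, named after their values were seen. Fkbp5, Tsc22d3 and Klf9 are also among the 12 output genes above, of which 4 had this order, with Cdkn1a. Fkbp5 and Zbtb16, 2 of the 10, also shared the 2 lowest libraries of Dbp, against 4.25% of all tested genes. Fkbp5, a chaperone of the glucocorticoid receptor, had 52.3, 135 and 105 CPM in CTRL and 40.8, 55.5 and 161 CPM in RbpjΔEC. Zbtb16, a transcription factor, had 57.5, 148 and 84.6 CPM in CTRL and 25.4, 87.1 and 272 CPM in RbpjΔEC. The highest Zbtb16 level was 10.7 times the lowest, and both lay in RbpjΔEC. Tsc22d3 (GILZ) had 109.7, 149.6 and 104 CPM in CTRL and 71.3, 85.4 and 123 CPM in RbpjΔEC. Of the 10, 0 passed the adjusted threshold in the edgeR test, while 1 was higher (Cebpd, log2 fold change 0.31) and 2 were lower (Mt1, -1.09, and Mt2, -1.23) at an unadjusted p under 0.05, against 17.5% of all tested genes. The part of glucocorticoid signals in the Per1 values was not tested.

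**Figure D5:**
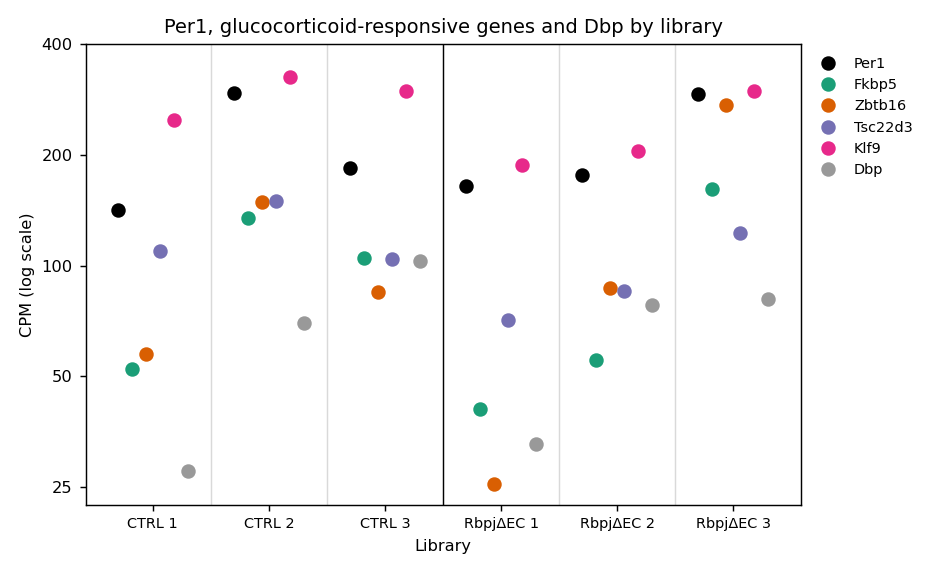
CPM on a log axis of Per1, 4 glucocorticoid-responsive genes and Dbp in each of the 6 libraries, 1 point per gene and library. Per1, Fkbp5, Zbtb16, Tsc22d3 and Klf9 are highest in CTRL 2 and RbpjΔEC 3, while Dbp is highest in CTRL 3 at 103 CPM.

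Per1 and Per2 are also counted among genes that rise within minutes of a stimulus. Of 18 tested immediate-early genes, 7 were higher in the RbpjΔEC libraries past the adjusted threshold in edgeR, 0 were lower and 11 did not pass, where 0.575% of all tested genes were higher. The difference between these genes and Per1 or Per2 was not tested. They were Fos, Junb, Egr1, Egr3, Ier2, Atf3 and Btg2, and the median log2 fold change of the 18 was 0.48. Their summed level was 6495 to 7652 CPM in CTRL and 8571 to 10245 CPM in RbpjΔEC. Of 8 genes that answer to cAMP through CREB, 1 passed, Fos, and Sik1 and Nr4a2 had log2 fold changes of 0.43 (adjusted p = 0.137) and 0.61 (adjusted p = 0.0719, both from edgeR). For 14 of the 18 immediate-early genes every RbpjΔEC library lay above every CTRL library, against 11.4% of all tested genes. A pair of libraries from both genotypes could then be neither the 2 highest nor the 2 lowest. The orders of Per1 and Dbp could therefore not occur in these 14. Among the 18, 0 had CTRL 2 and RbpjΔEC 3 as the 2 highest libraries, against 6.31% of all tested genes. For 0 were CTRL 1 and RbpjΔEC 1 the 2 lowest, against 4.25%.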

How the data were processed

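Sorted kidney ECs of 3 CTRL and 3 RbpjΔEC mice were sequenced in 1 common run. The authors trimmed (Trim Galore 0.6.4), aligned (STAR 2.6.1d) and counted reads per gene (featureCounts, Subread 1.6.4) on GRCm38.p6 with GENCODE M25, and deposited whole-number counts without normalization. Columns were matched to samples by the number in each sample's description.

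edgeR 4.0.16 under R 4.3.3 gave TMM factors, CPM, log2 CPM (prior count 2) and a robust quasi-likelihood fit, tested with glmQLFTest over 18438 genes kept by filterByExpr, with Benjamini-Hochberg adjustment and a threshold of 0.05. DESeq2 1.42.0 was an alternative. The fit was tested on simulated data. Floors cover counting error only. Positions and lengths came from GENCODE M21, so single genes can differ from M25. A position is 1-based.

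The members and lists were chosen with earlier results of these data known. Named were all members, the 3 genes of smallest p and those past the threshold in each other list, neighbours within 5 kb, and the 5 genes most like Dbp. Some items named by this rule are not reported here.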

Additional observations from a re-analysis of the deposited data

How the results depend on the processing

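The count of clock genes past the threshold was 0 under the 14 alternative fits in which it was counted, and so was that of the other clock genes. At an unadjusted p under 0.05, clock genes were 2 with the replicate number as a block (Per2 and Per3, in a fit where 16.5% of all tested genes had such a p). There was 1 without RbpjΔEC 1 (Arntl, beside 2290 of all 19131 tested genes), 1 without both replicate 1 libraries (Per3, beside 7.71%) and 0 in the other 11. Of the output genes, 1 passed with no low-count filter and 1 with DESeq2 (Lonrf3 in both), and leaving out 1 library gave 0 to 1, Lonrf3 without CTRL 2 and Klf9, which was lower, without RbpjΔEC 3. Of 140 fold changes of clock genes in these fits, 123 kept their sign and 17 reversed, and 0 passed. The fit without robust estimation left the fold changes themselves unaltered, so its share of the 123 could not reverse. With library sizes unscaled by TMM, Clock and Nr1d2 were each at 0.018. Leaving out 1 library gave log2 fold changes of -0.37 to 0.017 for Arntl, -0.064 to 0.020 for Clock, -0.28 to 0.36 for Per1, 0.046 to 0.83 for Per2, 0.13 to 0.51 for Per3, 0.057 to 0.42 for Cry1, 0.0015 to 0.31 for Cry2, -0.43 to 0.12 for Nr1d1, -0.16 to 0.15 for Nr1d2 and -0.44 to 0.39 for Dbp. Without both replicate 1 libraries, left out after the data were seen, Per1 was at -0.039 and Nr1d2 at 0.047.

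Over all tested genes, 209 passed in the reported fit, 1436 with no low-count filter, 944 with DESeq2, 14 without both replicate 1 libraries, and 21 (without RbpjΔEC 1) to 700 (without CTRL 2) when 1 library was left out. Without TMM, 159 genes were higher and 81 lower in place of 106 and 103. With the replicate number as a block, 344 passed and Dbp was at 0.017. Whether the replicate numbers pair the samples is not known. Over all tested genes, same-numbered libraries deviated from their group means with correlations of 0.0231, 0.00916 and 0.00544. There, 0 of 6 libraries was nearest to its own number. Every pair of a CTRL and an RbpjΔEC library lay between -0.0628 and 0.0480, so these values cannot decide the question. Over the clock genes the same-numbered correlations were 0.936, -0.114 and 0.609, beside 0.907 for CTRL 3 with RbpjΔEC 2. With the activator contrast of each library (Arntl and Clock, without Npas2) as a covariate, added after the data were seen and counted over all genes only, 146 passed, of which 120 were among the 209 (82.2% of the 146 and 57.4% of the 209). The activator contrast with Npas2 differed between the groups by -1.23 to -0.26 when 1 library was left out, and the one without Npas2 by -0.53 to 0.24, turning above 0 without CTRL 1, RbpjΔEC 2 or RbpjΔEC 3. The members had 282 counts or more in each library. The cause of these changes was not tested.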

Other observations

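Of 10439 tested genes with a mean of at least 5 CPM, the 5 outside the members whose log2 CPM over the 6 libraries was most like that of Dbp were Zrsr1, Arhgap17, Zc3h14, Rtp4 and Pik3cd. They were chosen for this likeness by Pearson's r and carry no test. Pik3cd, a kinase subunit of leukocytes and some other cells, had 16.9, 25.5 and 29.5 CPM in CTRL and 18.9, 24.7 and 23.3 CPM in RbpjΔEC. Zrsr1, a splicing factor gene, varied far less, with a highest level 1.10 times the lowest. In the same order, with Dbp itself at place 1, Tef stood at place 11, Nr1d1 at 18, Nr1d2 at 34, Hlf at 42 and Bhlhe41 at 51, while Arntl stood at place 10402, near the opposite end, and Clock at 10032. The 6 libraries fall into a pair with low Dbp and 4 with high Dbp, so this order rests largely on the pair. Among the other 4 libraries, Nr1d1 again had its highest level in CTRL 3, where Dbp was highest, while Tef was lower in CTRL 3 than in the other 3.

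Genes that overlap a clock gene or lie within 5 kb of one numbered 19, of which 15 were tested. Of these, 0 passed the adjusted threshold in edgeR, and 3 of the 15 had an unadjusted p under 0.05, a share near the 17.5% of all tested genes. They were Vamp3, upstream of Per3 and lower (log2 fold change -0.22), Mapk8ip1, behind Cry2 and lower (-0.47), and Gm43658, inside Clock on the same strand and higher (0.53, with 3.41, 3.90 and 2.84 CPM in CTRL and 4.41, 4.48 and 5.83 CPM in RbpjΔEC). None of the clock genes beside them passed.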
